A study of Mus musculus with 47 samples.

Results

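The S100 genes followed here are 8 members of the S100 family, small calcium-binding proteins of which several bind annexins: S100a1, S100a4, S100a6, S100a8, S100a9, S100a10, S100a11 and S100a13. A member was followed through the array probe set annotated to its symbol and no other, and where there were several, through the one with the highest mean over all arrays. This gave a value to 7 of the 8 members, of 12393 genes with a value in all. S100a11 has none, because its probe set is also annotated to Gm12854 and S100a11-ps. Of the 7, 5 passed a filter on low values, which dropped 30% of all genes (mean log2 signal below 4.35), and S100a8 and S100a9 lay below it.

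RNA was measured on 47 Affymetrix mouse arrays from JB6 cells, progenitor cells of mouse epidermis in which tumour promoters can be studied. The shRNA line carried a retroviral short hairpin RNA against AnxA2, the gene of annexin A2, and the vector line carried the empty retroviral vector; both were stable lines kept under puromycin selection. Each line received 10 cGy or 100 cGy of X-rays and was collected 2, 6 or 24 h later, or was sham-treated (untreated here) and collected at 2 or 24 h. These 16 groups hold 3 arrays each, except vector cells 24 h after 10 cGy, with 2 (replicates 1 and 3), and there is no untreated 6 h group. The labels do not say whether a line was 1 clone or a pool, and each treatment of AnxA2 is 1 line, so the hairpin and any other difference between the lines cannot be told apart. All values are log2 signals, and all differences are log2 differences of group means with their standard errors (SE) from 1 limma fit to all arrays. A difference was called at a Benjamini-Hochberg adjusted p under 0.05 over 8675 tested genes.

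S100 proteins are small EF-hand proteins that work mostly as dimers and bind target proteins when calcium rises. S100A10 is the exception: it no longer binds calcium and sits permanently on the N terminus of annexin A2, and this complex holds plasminogen, channels and AHNAK at the cell membrane. Its protein is known to be unstable without annexin A2, which arrays of RNA do not measure. S100A11 and S100A6 also bind annexins, S100A4 binds non-muscle myosin, S100A13 takes part in the unconventional release of FGF1 and interleukin-1 alpha, S100A1 is best known from muscle, and S100A8 and S100A9 form calprotectin, an abundant protein of neutrophils and of stressed epidermis.

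All 8 genes lie on mouse chromosome 3 (RefSeq, GRCm38.p6) in 2 blocks. S100a1, S100a13, S100a4, S100a6, S100a8 and S100a9 span chr3:90511034-90695721, and S100a11 and S100a10 are neighbours at chr3:93520496-93564645. S100a1 (chr3:90511034-90514330) and S100a13 (chr3:90514233-90524581) share 98 bases of their annotated gene bodies. The RefSeq promoter windows, 250 bases before to 50 after a start, held 7 of the 8 members; S100a10 was the other. The windows of S100a13 and S100a1 are printed because they face each other: S100a13 is read from the plus strand and S100a1 from the minus strand, and 204 bases (chr3:90514281-90514484), in capitals, belong to both and are the reverse complement of each other. The S100a13 window is placed on a start that lies inside its annotated gene body. S100a4 is printed because its window holds a TATAAA, in capitals, that begins 31 bases before the start (position -31).
S100a13, chr3:90514185-90514484, plus strand: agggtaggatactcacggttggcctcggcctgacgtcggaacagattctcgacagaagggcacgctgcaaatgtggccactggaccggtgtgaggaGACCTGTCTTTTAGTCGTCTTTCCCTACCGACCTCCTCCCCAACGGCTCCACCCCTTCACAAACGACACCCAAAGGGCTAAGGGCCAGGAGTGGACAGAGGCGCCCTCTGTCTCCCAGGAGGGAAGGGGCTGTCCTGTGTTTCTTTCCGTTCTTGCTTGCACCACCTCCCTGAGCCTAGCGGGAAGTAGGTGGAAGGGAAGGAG
S100a1, chr3:90514281-90514580, minus strand: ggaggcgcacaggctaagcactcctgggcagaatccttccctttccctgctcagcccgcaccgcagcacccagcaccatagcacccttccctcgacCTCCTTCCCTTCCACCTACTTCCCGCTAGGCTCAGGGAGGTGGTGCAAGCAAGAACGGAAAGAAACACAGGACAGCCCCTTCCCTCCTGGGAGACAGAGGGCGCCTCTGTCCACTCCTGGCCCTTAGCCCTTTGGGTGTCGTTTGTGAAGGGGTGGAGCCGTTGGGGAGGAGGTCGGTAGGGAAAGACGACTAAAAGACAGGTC
S100a4, chr3:90603520-90603819, plus strand: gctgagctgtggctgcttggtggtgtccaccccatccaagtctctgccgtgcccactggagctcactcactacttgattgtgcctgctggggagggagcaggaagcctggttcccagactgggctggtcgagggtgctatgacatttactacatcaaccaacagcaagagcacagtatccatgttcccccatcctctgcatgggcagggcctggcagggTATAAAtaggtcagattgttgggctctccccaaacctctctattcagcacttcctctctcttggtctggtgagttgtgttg

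Of 3 motifs searched on both strands, the letters TATAAA of the TATA element were found in 13.6% of 32851 RefSeq windows of this length. The letters GGGCGG, bound by Sp1, were found in 35.7%, and the letters TGANTCA, bound by AP-1, in 7.81%. No matches of different motifs overlapped in a member's window. The windows of S100a13, S100a1 and S100a6 hold none of these letters. TATAAA was also found in S100a8 and S100a9. S100a9 has 1 GGGCGG, and S100a11 has 3 GGGCGG and 2 TGAGTCA.

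The targeted gene and the arrays were checked first. Anxa2 lay at 10.58, 10.96 and 11.15 (lowest, median and highest of 6) in untreated shRNA cells and at 12.25, 12.44 and 12.66 in untreated vector cells, without overlap. It fell by 1.55 ± 0.06 on the log2 scale (limma adjusted p = 3.38e-23), a level 0.342 times that of vector cells. In 7 of 12 epithelial markers, among them Cdh1 (2.37), Epcam (3.54) and Trp63 (3.32), the mean signal lay below the filter. The other 5 passed it, with means of 8.50 (Itga6), 5.46 (Pkp1), 5.24 (Krt14), 5.04 (Krt8) and 4.62 (Krt5). On 4 arrays the Gapdh 3′ probe set exceeded the 5′ one by over 0.25, a sign of RNA quality: shRNA 10 cGy 6 h replicate 1 (1.06), vector untreated 2 h replicate 3 (0.594), shRNA 100 cGy 2 h replicate 2 (0.492) and shRNA untreated 2 h replicate 1 (0.309). Replicate 3 of the untreated, 10 cGy and 100 cGy vector groups at 2 h also stood apart, at -2.37 to 1.75 on the second principal component, against -19.56 to -16.91 for the other 6 vector arrays at 2 h and 18.30 to 20.62 for vector arrays at 24 h.

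In untreated cells, S100a13, S100a10 and S100a4 RNA rose in shRNA cells relative to vector cells, and no member fell. S100a13 was 1.45-fold higher, S100a10 1.26-fold and S100a4 1.09-fold. In RNA of whole cultures, more cells that express a gene and more RNA per cell cannot be told apart. The lines differed over much of the array: 48.2% of all tested genes were called in this comparison and 24.1% were higher, so 3 of 5 members called is not set apart from the other genes by this count. The median difference of the 5 members was 0.22, which is the value of S100a1, a member that was not called, against 0.02 over all tested genes. It was 0.12 with the second probe sets of S100a10 and S100a1 or with the mean of all probe sets of a gene. Only S100a13, 1 of the 5, had shRNA and vector arrays without overlap, as did 18.4% of all tested genes. The count of 3 was 1 without shRNA 2 h replicate 3 or shRNA 24 h replicate 2, 2 with no filter on low values or with quantile normalization, and 5 without the 4 arrays with a raised Gapdh difference.

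In irradiated cells, which are other arrays, 4 of 5 members were higher in shRNA cells, where 64.8% of all tested genes were called and 32.2% were higher. These were S100a13, S100a10, S100a6 and S100a4, and their median together with S100a1 was 0.12, against 0.02 over all tested genes. The arrays of the lines overlapped for each of the 5, whereas they did not for 9.18% of all tested genes. Whether a line difference changed with irradiation was not tested.

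**Figure D1:**
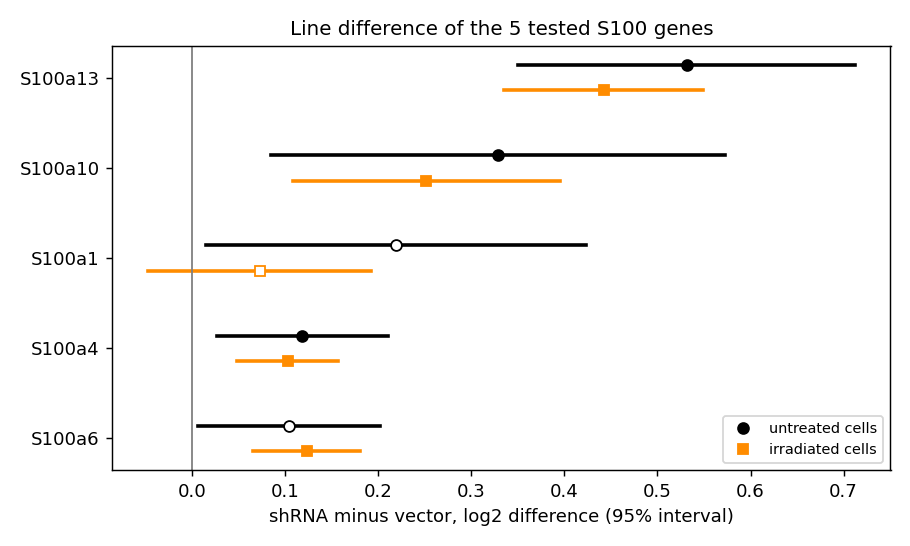
Log2 difference, shRNA minus vector cells, of the 5 tested S100 genes with 95% intervals from limma, in untreated cells (circles, 6 against 6 arrays) and irradiated cells (squares, 18 against 17 arrays); filled symbols passed an adjusted p of 0.05. S100a13 lies farthest to the right in both (0.53 and 0.44), S100a10 follows (0.33 and 0.25), and S100a1 is not called in either.

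S100a10, the partner of annexin A2, was at a higher RNA level in the line with less Anxa2. In untreated cells at 2 h it lay at 11.58, 11.88 and 12.05 in shRNA cells and at 11.12, 11.37 and 11.46 in vector cells. The groups did not overlap at that time, and each shRNA array was above each vector array. At 24 h it lay at 11.59, 11.62 and 11.80 in untreated shRNA cells and at 11.40, 11.48 and 11.72 in untreated vector cells, with overlap. Over both times the difference was 0.33 ± 0.12 (SE, n = 6 each; 95% interval 0.08 to 0.57; limma adjusted p = 0.0226). In irradiated cells it was 0.25 ± 0.07 (n = 18 and 17; limma adjusted p = 0.00213).

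The untreated S100a10 call rested on single arrays: it was lost without shRNA 2 h replicate 3 (adjusted p = 0.0734), shRNA 24 h replicate 2 (0.0575), vector 2 h replicate 3 (0.0680) or vector 24 h replicate 2 (0.0565). The irradiated call held without any 1 of the 35 arrays. A second S100a10 probe set gave 0.35 ± 0.07 in untreated cells (limma adjusted p = 5.22e-05) and 0.27 ± 0.04 in irradiated cells (2.47e-07).

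S100a10 was low on the arrays with a raised Gapdh difference. On each of the 4 arrays it was below both other replicates of its group. How many of all tested genes did the same was not counted, and a link to RNA quality was not tested. The low values were not particular to S100a10. On shRNA untreated 2 h replicate 1, S100a1, S100a4, S100a6 and S100a13 were also each below both others. On shRNA 100 cGy 2 h replicate 2, S100a1 and S100a4 were below both others, and S100a6 and S100a13 lay between them. On vector untreated 2 h replicate 3, S100a1 (5.26) was also below both others, while S100a4 (13.04), S100a6 (12.78) and S100a13 (8.31) were above both. On shRNA 10 cGy 6 h replicate 1, S100a4 and S100a13 were above both others, and S100a1 and S100a6 lay between them. S100a10 lay at 11.55 on shRNA 10 cGy 6 h replicate 1, against 11.98 and 12.15 on the others. It lay at 11.07 on shRNA 100 cGy 2 h replicate 2, against 11.62 and 12.07. On the remaining pair it lay at 11.58 against 11.88 and 12.05 in untreated shRNA cells at 2 h, and at 11.12 against 11.37 and 11.46 in untreated vector cells at 2 h. Without these 4 arrays, a setting chosen after the values were seen, S100a10 differed by 0.34 between the untreated lines (adjusted p = 0.00628) and by 0.32 between the irradiated lines (6.56e-06).

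S100a10 was higher in shRNA cells in 7 of the 8 conditions, and in 4 of them the arrays did not overlap. The share of all tested genes without overlap between the lines in a single condition was not counted. Such counts, here and for the members below, are therefore descriptions only. The widest gaps were at 2 h without treatment (0.52) and 6 h after 10 cGy (0.52). The exception was 2 h after 100 cGy, where the difference was -0.06 and shRNA cells held the low array with a raised Gapdh difference. Without that array the difference was 0.19, so the exception rested on 1 array. The group means of S100a10 in shRNA cells lay between 11.59 (100 cGy, 2 h) and 11.91 (10 cGy, 2 h), and those in vector cells between 11.32 (untreated, 2 h) and 11.65 (100 cGy, 2 h). Among the 16 group means in order, no 2 neighbours differed by more than 0.16, which is less than the pooled spread between arrays of a group (SD 0.22).

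S100a13, whose product takes part in the release of leaderless growth factors, showed the widest line difference of the 5. In untreated cells at 2 h it lay at 8.56, 8.57 and 8.64 in shRNA cells and at 8.05, 8.09 and 8.31 in vector cells. At 24 h it lay at 8.54, 8.55 and 8.71 in untreated shRNA cells and at 7.93, 7.96 and 8.04 in untreated vector cells. The lowest shRNA array was above the highest vector array at both times. The difference was 0.53 ± 0.09 (SE, n = 6 each; 95% interval 0.35 to 0.71; limma adjusted p = 4.68e-06), and it stayed called without any 1 of the 12 arrays.

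In irradiated cells S100a13 was higher by 0.44 ± 0.05 in shRNA cells (n = 18 and 17; limma adjusted p = 2.08e-09). It was higher in shRNA cells in 8 of 8 conditions, from 0.18 at 2 h after 100 cGy to 0.70 at 6 h after 10 cGy, without overlap in 6. The 2 conditions with overlap were 10 and 100 cGy at 2 h, where the vector groups include arrays that stood apart. There, vector replicate 3 lay at 8.72 after 10 cGy, against 8.04 and 8.19 on the others, and at 8.53 after 100 cGy, against 8.23 and 8.24. Group means of S100a13 lay between 8.51 and 8.81 in shRNA cells and between 7.98 and 8.33 in vector cells, so the 8 vector groups were the 8 lowest. The widest gap between neighbours in the order, 0.18, was the one between the lines, beside a pooled spread of 0.16 between arrays of a group.

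**Figure D2:**
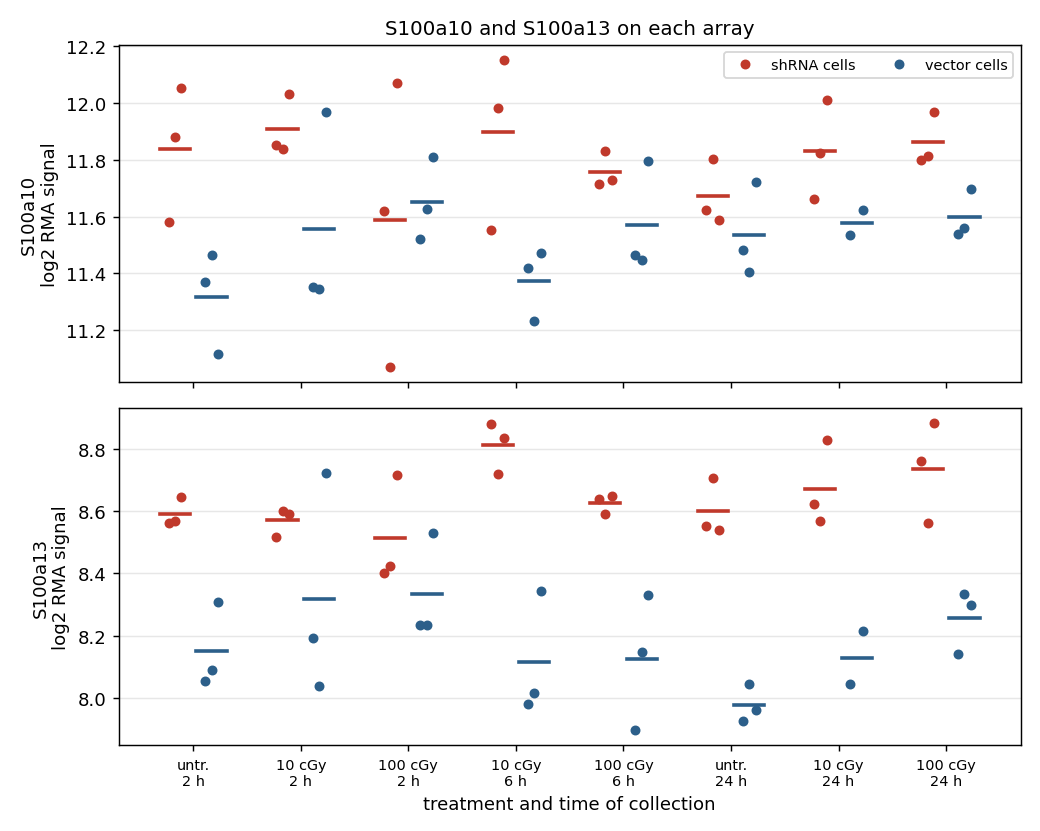
Log2 RMA signal of S100a10 (top) and S100a13 (bottom) on each array by treatment and time of collection, with shRNA cells left of vector cells in each condition; points are arrays and bars are group means. S100a13 arrays of shRNA cells lie above those of vector cells except for the 2 irradiated groups at 2 h, where vector replicate 3 reaches 8.72 and 8.53; S100a10 overlaps more, with single low arrays such as 11.07 at 2 h after 100 cGy.

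S100a4, known as metastasin for its part in cell motility, differed little between the lines but with little spread. In untreated cells at 2 h it lay at 13.18, 13.22 and 13.26 in shRNA cells and at 12.997, 13.002 and 13.045 in vector cells. At 24 h it lay at 13.16, 13.20 and 13.22 in untreated shRNA cells and at 13.15, 13.16 and 13.17 in untreated vector cells. The lines were apart at 2 h and overlapped at 24 h. The difference over both times was 0.12 ± 0.05 (limma adjusted p = 0.0290), and it was 0.10 ± 0.03 in irradiated cells (limma adjusted p = 9.46e-04). The untreated call was lost without shRNA 2 h replicate 3 (adjusted p = 0.0623), shRNA 24 h replicate 2 (0.0577), vector 2 h replicate 1 (0.0541) or vector 24 h replicate 3 (0.0516). It was also lost with no filter on low values (0.0512), with quantile normalization (0.0764) and with only the untreated groups in the fit (0.0860).

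S100a6, or calcyclin, which binds several annexins and the CacyBP protein, was higher by 0.12 ± 0.03 in irradiated shRNA cells than in irradiated vector cells (limma adjusted p = 2.37e-04). In untreated cells it lay at 12.65, 12.70 and 12.78 (lowest, median and highest) in shRNA cells and at 12.53, 12.56 and 12.78 in vector cells. This difference of 0.10 ± 0.05 was not called (limma adjusted p = 0.0725). The highest vector value was replicate 3 at 2 h, which had a raised Gapdh difference and stood apart from its group mates. Without that array the difference was 0.14 and was called (adjusted p = 0.0120). S100a6 was higher in shRNA cells in 8 of 8 conditions, by 0.07 to 0.25, and without overlap in the 3 conditions at 24 h.

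S100a1, a calcium sensor of the sarcoplasmic reticulum in muscle and the head-to-head neighbour of S100a13, was not called in either comparison. In untreated cells it lay at 5.37, 5.54 and 5.74 in shRNA cells and at 5.23, 5.29 and 5.47 in vector cells, a difference of 0.22 ± 0.10 (95% interval 0.02 to 0.42; limma adjusted p = 0.0704). In irradiated cells the difference was 0.07 ± 0.06 (95% interval -0.05 to 0.19; limma adjusted p = 0.289). Its lowest value, 4.71 on shRNA 100 cGy 2 h replicate 2, came from an array with a raised Gapdh difference, and without it the irradiated difference was 0.12 and was called (adjusted p = 0.0194). The untreated difference was called without shRNA 2 h replicate 1 (0.27, adjusted p = 0.0304) or vector 24 h replicate 2 (0.26, 0.0443). A second S100a1 probe set gave -0.06 in untreated cells (adjusted p = 0.549) and 0.08 in irradiated cells (0.110), so the probe sets differed in sign in untreated cells. Although S100a1 and S100a13 share most of the printed window, S100a13 was called in both comparisons and S100a1 in neither; the difference between the genes was not tested.

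**Figure D3:**
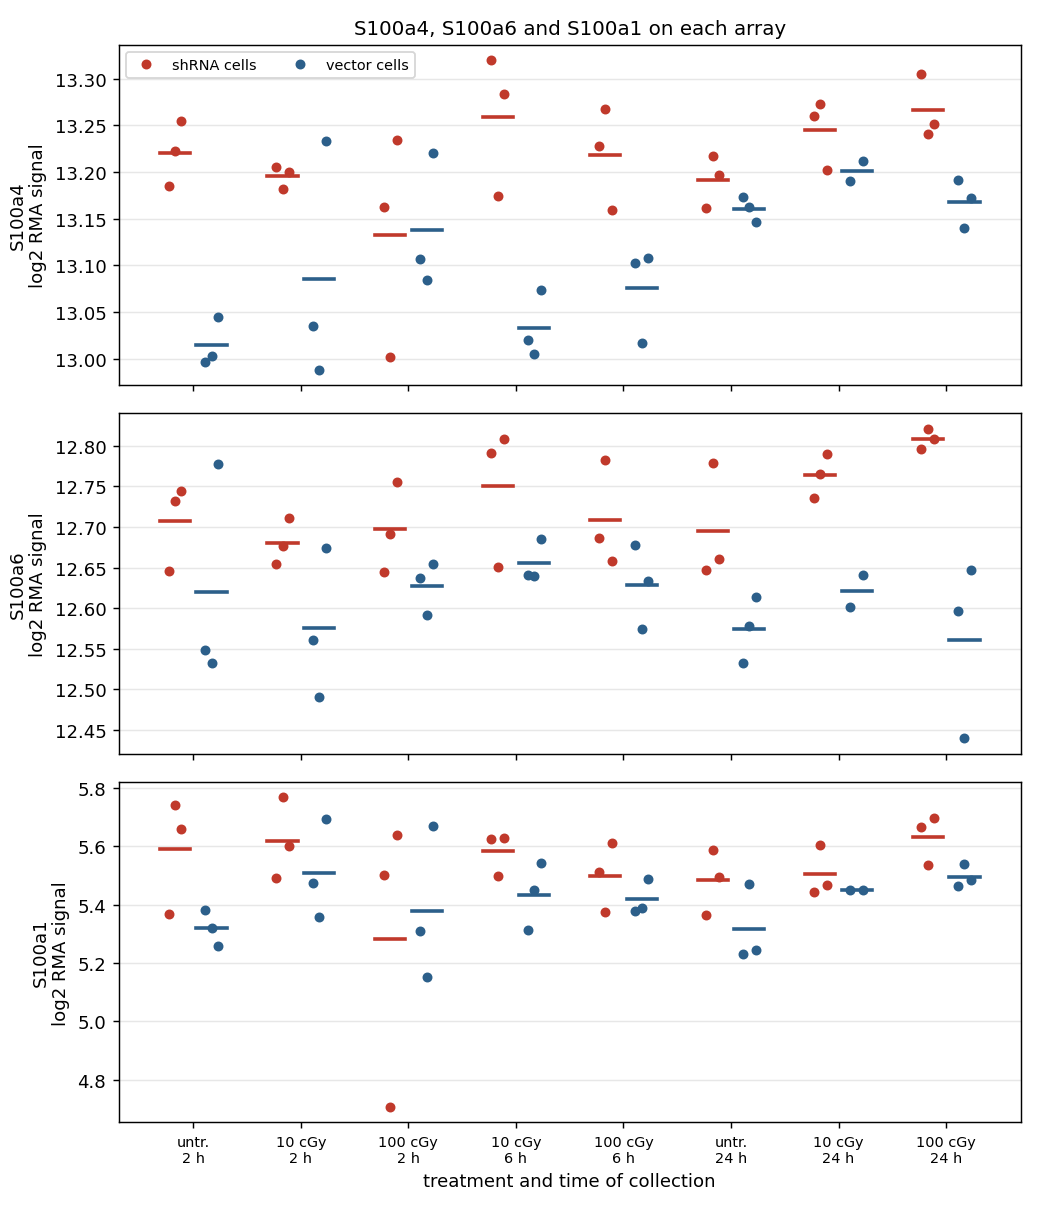
Log2 RMA signal of S100a4, S100a6 and S100a1 (top to bottom) on each array by treatment and time of collection, with shRNA cells left of vector cells; points are arrays, bars are group means, and each panel has its own axis range. S100a4 in vector cells has a mean of 13.01 at 2 h and 13.16 at 24 h without treatment, and S100a1 has 1 array at 4.71, in shRNA cells 2 h after 100 cGy.

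S100a8 and S100a9, the calprotectin subunits, stayed near the bottom of the scale in every group and were not tested. S100a8 lay between 2.80 and 3.57 (median 3.18) in shRNA cells, and between 2.84 and 3.36 (median 3.06) in vector cells. S100a9 lay between 2.83 and 3.55 (median 3.25) in shRNA cells, and between 2.86 and 3.68 (median 3.22) in vector cells. Its highest group mean was 3.59, in vector cells 2 h after 100 cGy (3.54 to 3.68). Untreated vector cells at 2 h lay at 3.07 to 3.12, and this difference below the limit was not tested. No array came up to the limit of 4.35, and the ranges of the lines overlapped for both genes. Of 14 myeloid markers, 10 were also below the limit, among them Ptprc, the common leukocyte antigen, with a mean of 2.58. Of the 4 tested, Lyz2 (0.44) and Cd14 (0.34) rose in untreated shRNA cells relative to untreated vector cells, where 24.1% of all tested genes rose. Csf1r and Camp (0.01 each) were not called. Markers below the limit went both ways. Itgb2 averaged 3.88 in untreated shRNA cells and 4.83 in untreated vector cells, and Ptprc 2.66 and 2.47. The summed linear signal of the 14 lay between 388 and 557 on shRNA arrays and between 357 and 453 on vector arrays. Cd14 had the highest mean of the 14 (7.78) and weighs most in this sum.

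**Figure D4:**
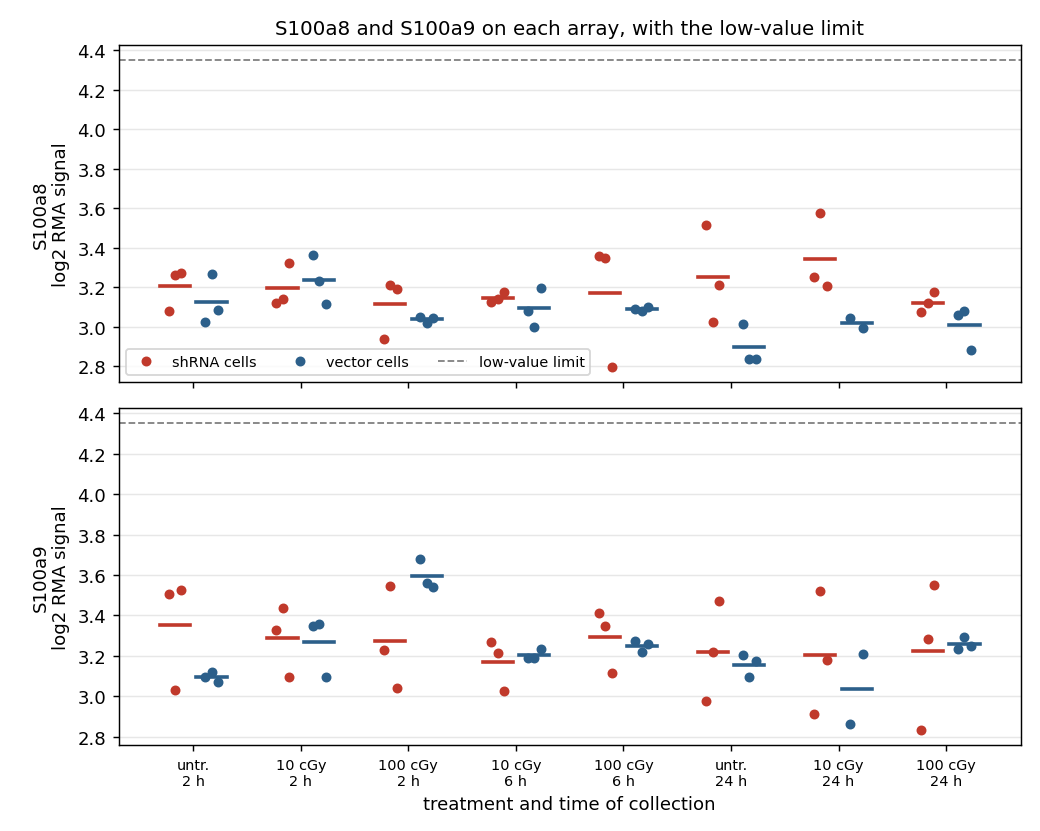
Log2 RMA signal of S100a8 (top) and S100a9 (bottom) on each array by treatment and time of collection, with shRNA cells left of vector cells; points are arrays, bars are group means, and the dashed line is the limit of 4.35 under which genes were not tested. Every array lies under the line, with the highest at 3.68.

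Time in culture was compared next, since untreated cells were collected at 2 h and 24 h. No member was called between 24 h and 2 h by limma in untreated shRNA cells, where 19.2% of all tested genes were called, or in untreated vector cells, where 25.9% were. An unadjusted p under 0.05 was reached by 2669 of all tested genes in shRNA cells and by 3166 in vector cells. The member nearest to a call was S100a4 in vector cells. It lay at 13.15, 13.16 and 13.17 at 24 h and at 12.997, 13.002 and 13.045 at 2 h, without overlap, a difference of 0.15 ± 0.06 (limma adjusted p = 0.0907). Of all tested genes, 34.2% had no overlap in this comparison; S100a13 was the other member without overlap, with -0.17 ± 0.13 (adjusted p = 0.339).

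In S100a10 the 24 h against 2 h difference was -0.17 ± 0.17 in untreated shRNA cells (adjusted p = 0.563) and 0.22 ± 0.17 in untreated vector cells (0.377). Both sizes moved with single arrays, from -0.30 without shRNA 2 h replicate 1 to -0.06 without shRNA 2 h replicate 3, and from 0.12 without vector 2 h replicate 3 to 0.29 without vector 2 h replicate 2. The second probe set gave -0.01 in untreated shRNA cells and 0.15 in untreated vector cells. The difference between the lines in this change was -0.39 ± 0.24 for S100a10 (limma adjusted p = 0.395) and -0.18 ± 0.09 for S100a4 (0.291). No member was called in that test, where 5.69% of all tested genes were called and 1641 had an unadjusted p under 0.05. The 95% interval of the S100a10 value, -0.87 to 0.10, leaves room for changes of either sign.

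In irradiated cells at matched doses, 0 of 5 members were called by limma in each of 4 time comparisons. For 6 h against 2 h, 21.5% of all tested genes were called in shRNA cells and 16.7% in vector cells, where 2774 and 2490 genes had an unadjusted p under 0.05. For 24 h against 2 h, 37.3% were called in shRNA cells and 35.3% in vector cells, and 3866 and 3742 had an unadjusted p under 0.05. S100a13 at 6 h against 2 h differed by 0.18 ± 0.09 in shRNA cells (adjusted p = 0.168) and by -0.21 ± 0.09 in vector cells (0.112); the difference between these was not tested. With the replicate number as a block the vector value was called (-0.21, adjusted p = 0.0405). Without the block it was called without vector 10 cGy 2 h replicate 2 (-0.28, adjusted p = 0.0326) or vector 10 cGy 6 h replicate 3 (-0.26, 0.0462). At 24 h against 2 h in shRNA cells, S100a4 differed by 0.09 ± 0.05 (adjusted p = 0.114) and S100a6 by 0.10 ± 0.05 (0.114). S100a4 was called there without shRNA 100 cGy 2 h replicate 3 (0.12, adjusted p = 0.0459). In vector cells S100a4 differed by 0.07 ± 0.05 (0.254), and by 0.13 without the 3 vector arrays at 2 h that stood apart (0.0288).

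Radiation dose was compared in each line at each time with an untreated group, and at 6 h between the doses. Over 10 such comparisons and 5 members, limma called 0 of 50 pairs. Few genes were called at all: the share of tested genes was 0.0231% in shRNA cells and 0.0461% in vector cells at 2 h after 100 cGy, and 0.161% in shRNA cells and 0.0922% in vector cells at 24 h after 100 cGy. It was 0.0115% for 10 cGy at 2 h in shRNA cells and at 24 h in vector cells, 0.0922% between the doses at 6 h in vector cells, and 0% in the other 3 comparisons. Between 88 and 987 of all tested genes had an unadjusted p under 0.05 in a comparison.

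The S100a10 values 2 h after 100 cGy differed in sign between the lines, and the value in shRNA cells moved with single arrays. In shRNA cells it lay at 11.07, 11.62 and 12.07 after 100 cGy and at 11.58, 11.88 and 12.05 without treatment, with overlap and a difference of -0.25 ± 0.17 (limma adjusted p = 0.909). In vector cells it lay at 11.52, 11.63 and 11.81 after 100 cGy and at 11.12, 11.37 and 11.46 without treatment, a difference of 0.33 ± 0.17 (limma adjusted p = 0.453). The vector arrays did not overlap, as for 16.9% of all tested genes in that comparison. Arrays with a raised Gapdh difference are the lowest of the irradiated shRNA group and of both untreated groups. Without all such arrays the differences were -0.12 in shRNA cells and 0.23 in vector cells. Without shRNA 100 cGy 2 h replicate 2 alone the shRNA value was 0.0059, without shRNA 100 cGy 2 h replicate 3 it was -0.49, and the second probe set gave -0.07. In vector cells the value was 0.16 without the 3 vector arrays at 2 h that stood apart, and 0.19 on the second probe set. The difference between the lines in this response was not tested here.

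S100a13 differed by 0.28 ± 0.13 at 24 h after 100 cGy in vector cells, with 8.14, 8.30 and 8.33 after 100 cGy and 7.93, 7.96 and 8.04 without treatment. These arrays did not overlap, as for 12.4% of all tested genes, and the difference was not called (limma adjusted p = 0.9995). S100a6 at the same dose and time lay at 12.80, 12.81 and 12.82 in irradiated shRNA cells and at 12.65, 12.66 and 12.78 in untreated shRNA cells. These did not overlap, as for 13.1% of all tested genes, with a difference of 0.11 ± 0.07 (limma adjusted p = 0.800). Over the 8 comparisons with an untreated group, the 95% intervals reached from -0.60 to 0.68 for S100a10, from -0.33 to 0.54 for S100a13, from -0.60 to 0.48 for S100a1, from -0.22 to 0.25 for S100a4 and from -0.18 to 0.25 for S100a6. The intervals were narrowest for S100a4 and S100a6 and widest for S100a10 and S100a1, so small dose differences in S100a10 were not detectable with these arrays.

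**Figure D5:**
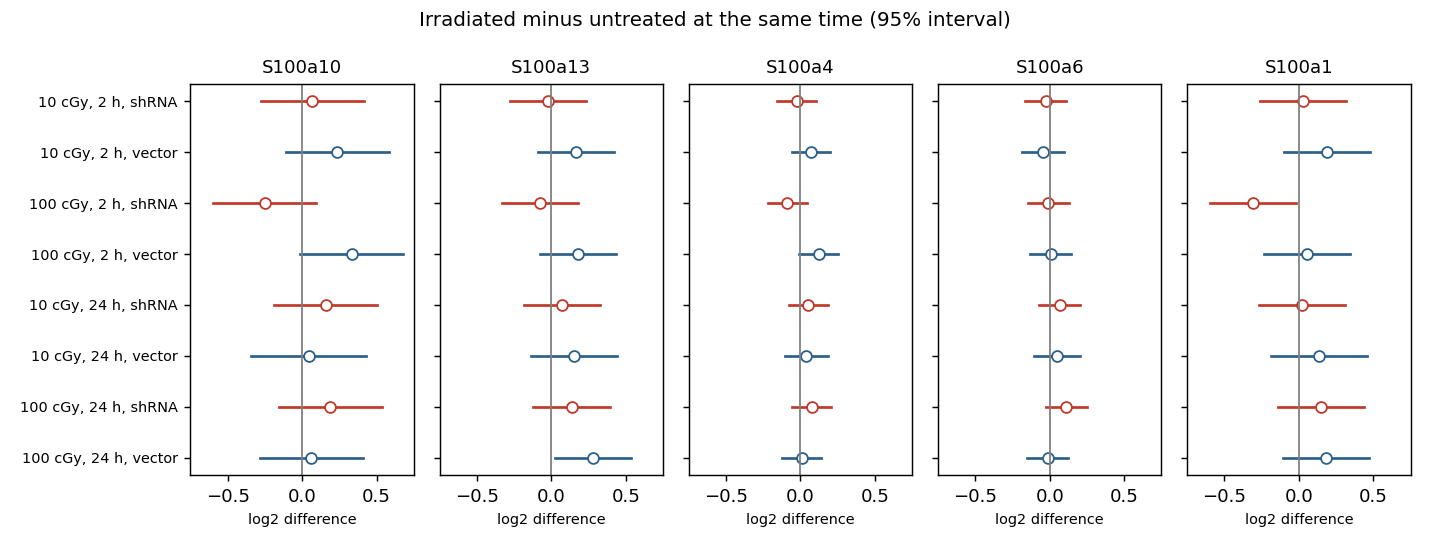
Log2 difference, irradiated minus untreated cells at the same time, with 95% intervals from limma, for the 5 tested S100 genes (panels) in shRNA cells (red) and vector cells (blue); hollow circles are differences that were not called. No point is filled; S100a10 has its widest values at 2 h after 100 cGy, -0.25 in shRNA cells and 0.33 in vector cells.

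Other genes with an S100 symbol were set beside the members as a list in untreated cells. Of 10 listed, 7 had a value and 5 were tested. Of these, 3 rose and 1 fell in shRNA cells relative to vector cells, where 24.1% of all tested genes rose and 24.1% fell. The remaining gene, S100pbp, encodes a binding protein of an S100 protein and is not itself of the family. It differed by -0.07 ± 0.13 (limma adjusted p = 0.700). The 3 that rose were S100a3 (0.51 ± 0.10, limma adjusted p = 6.42e-05), S100a14 (0.39 ± 0.09) and S100b (0.32 ± 0.10). S100a16 fell by 0.32 ± 0.06 (limma adjusted p = 6.51e-05). S100a14 averaged 4.57 in untreated shRNA cells and 4.18 in untreated vector cells, and S100b averaged 4.55 in untreated shRNA cells and 4.24 in untreated vector cells, so their vector means lay below the limit of 4.35. Both genes were at the edge of the filter and were tested through their higher levels in other groups, so these 2 rises are given as a description only. The median of the 5 tested genes, S100pbp among them, was 0.32, the value of S100b, against 0.02 over all tested genes.

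Annexins, the partners of several S100 proteins, numbered 12 on the list, of which 9 were tested. Of these, 5 rose and 1, Anxa2 itself, fell in untreated shRNA cells, where 24.1% of all tested genes rose and 24.1% fell. Anxa8 (1.50 ± 0.07), Anxa3 (0.92 ± 0.04), Anxa9 (0.69 ± 0.11), Anxa5 (0.47 ± 0.05) and Anxa4 (0.15 ± 0.06) were higher. Anxa1, whose product binds S100A11, had a difference of 0.02 ± 0.07 (limma adjusted p = 0.878). The median of the 9 was 0.18, against 0.02 over all tested genes.

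Receptors and binding partners of S100 proteins numbered 20, of which 11 were tested. Of these, 1 rose and 4 fell in untreated shRNA cells, where 24.1% of all tested genes rose and 24.1% fell. Ahnak, the scaffold that binds the annexin A2 and S100A10 complex, was higher by 0.70 ± 0.13 (limma adjusted p = 2.13e-05). Ctsb, the protease cathepsin B, fell by 0.60 ± 0.05, Plat, tissue plasminogen activator, by 0.41 ± 0.08, Sugt1, a partner of S100A6, by 0.41 ± 0.07, and Cd44, a hyaluronan receptor, by 0.20 ± 0.07. Fgf1 and Il1a, whose products S100A13 helps to release, had mean signals of 3.02 and 3.19, below the limit. Ager, the receptor for S100 proteins known as RAGE, had a difference of 0.01 ± 0.07 in untreated cells (limma adjusted p = 0.951). In irradiated cells Ager was higher by 0.12 in shRNA cells (limma adjusted p = 0.0119). There, 4 of the 11 were higher and 5 lower, where 64.8% of all tested genes were called and 32.2% were higher.

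Some markers of cell type also differed between the untreated lines, where 24.1% of all tested genes were higher in shRNA cells and 24.1% lower. In untreated cells, 4 of 8 tested mesenchymal markers were higher in shRNA cells, among them Col1a1 (0.72 ± 0.15) and Vim (0.30 ± 0.04), and Pdgfra fell by 2.58 ± 0.08. Of 5 epithelial markers tested, Pkp1 was higher by 0.65 ± 0.11 and the keratin Krt14 by 2.99 ± 0.12. Krt14 averaged 6.72 in untreated shRNA cells and 3.73 in untreated vector cells, which is below the limit. Among 4 tested epidermal differentiation genes, Sprr1a, a cornified envelope precursor, was higher by 1.04 ± 0.10 and Krt10, a keratin of differentiated epidermis, fell by 0.31 ± 0.09. Sprr1a averaged 5.10 in untreated shRNA cells and 4.06 in untreated vector cells, so for Krt14 and Sprr1a the vector level was below the limit, both were tested through their higher levels elsewhere, and the size of their differences is uncertain. The summed linear signal of the 12 epithelial markers lay between 551 and 833 on shRNA arrays and between 396 and 771 on vector arrays. That of the 10 mesenchymal markers lay between 24399 and 33652 on shRNA arrays and between 18724 and 25609 on vector arrays. The part of these differences in the S100 values was not tested.

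Across the 16 group means the members followed one another, and pairs differed in how much of this remained within the lines. S100a10 and S100a4 had a Pearson r of 0.89 and S100a10 and S100a13 of 0.84; after the mean of each line was subtracted, these were 0.76 and 0.48. S100a10 and S100a1 had r = 0.77, and 0.68 after subtraction, while S100a10 and S100a6 had 0.69, and 0.06 after subtraction. S100a10 and Anxa2 had r = -0.76, and 0.07 after subtraction. These points share arrays, and the line accounts for their widest contrast, so the values are descriptions over 16 groups. The mean of shRNA cells 2 h after 100 cGy includes replicate 2, an array with a raised Gapdh difference. On it S100a10, S100a4 and S100a1 were below both other replicates, and S100a6 and S100a13 lay between them. How far the values after subtraction rest on that array was not tested.

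By the same measure, the tested genes most like S100a10 were Mydgf, Rplp2 and 0610012G03Rik (r = 0.93 each), and with line means subtracted Ost4, Nedd8 (0.94 each) and Rps10 (0.93). Those most like S100a13 were Lypla2 (0.96), Reep5 and H2-D1 (0.95 each), and with line means subtracted 1110008P14Rik (0.80), Bad (0.77) and Ckb (0.76). For S100a4 they were Bin1 (0.95), Mrpl23 and Atp5j (0.94 each), and with line means subtracted Bin1, Uqcr11 and Atp5o (0.95 each). S100a6 was most like Osbpl5, Gmip (0.92 each) and Trip10 (0.91), and with line means subtracted like Clcn2, Mmp11 (0.78 each) and Adamts7 (0.77). S100a1 was most like Atp1b1, Rplp2 (0.83 each) and Prss40 (0.81), and with line means subtracted like Rplp2 (0.80), Nsa2 (0.79) and Prss40 (0.78).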

How the data were processed

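RNA of 47 samples was measured on Affymetrix mouse arrays with 22690 probe sets; per the labels, targets were biotinylated with a one-cycle kit. The authors deposited log2 signals, which per the submitters' processing notes were made by RMA; no version is named. Values ran from 1.84 to 14.03 and were used as deposited, and raw array files were not analysed here. No 2 arrays were identical.

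Groups of line, dose and time follow the labels. The labels do not say whether replicates came from separate cultures, so p values measure the spread between these samples, which may be technical. The 64 control probe sets, 691 with several symbols and 1555 with none were left out. Where a gene had several probe sets, the one with the highest mean stood for it, and the lowest 30% of genes by mean were left out, which left 8675.

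A single limma fit (limma 3.58.1, R 4.3.3) of 16 group means gave 19 contrasts, with 31 residual and 5.68 prior degrees of freedom. P values are two-sided and adjusted by Benjamini-Hochberg over all tested genes of a contrast. The fit was tested on simulated data. The number of arrays limits the precision.

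The 8 members were named in every comparison, Anxa2 as the targeted gene, up to 6 genes of each list by smallest p in the untreated line comparison, and for each tested member the 3 genes most like it by each measure. Anxa1, Ager, Fgf1, Il1a and genes below the limit were named after their values were seen. The members and the 7 lists set beside them were chosen with earlier results of these data known. Alternatives covered the filter, centring, quantile normalization, the choice of probe set, the groups in the fit, moderation, array weights, a replicate block and left-out arrays. Gene positions and promoter windows are RefSeq's for GRCm38.p6.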

Additional observations from a re-analysis of the deposited data

How the results depend on the processing

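Over 15 settings and 47 arrays left out in turn, 2246 member values and 453 counts of called members were recomputed. No called value changed direction, and 127 values that were not called changed sign. Of the counts, 23 moved to or from 0 or by a wide ratio. Smaller moves (3 to 2, 3 to 4 or 4 to 5) are not among the 23. S100a13 stayed called in both line comparisons throughout (0.53 to 0.58 over the settings in untreated cells), and S100a10 stayed called in both, except in untreated cells without 1 of the 4 arrays named beside that result. The 4 calls in irradiated cells (S100a13, S100a10, S100a6 and S100a4) stayed under every setting and left-out array. The untreated line count of 3 was 5 with arrays centred on their median, with either kind of array weights and without the 4 arrays with a raised Gapdh difference. It was 4 with trended robust moderation and without the 3 vector arrays at 2 h that stood apart, and 2 with no filter on low values and with quantile normalization, where S100a4 was not called. It was 1 to 4 when single arrays were left out, and the irradiated count was 4 to 5. The 24 h against 2 h count in untreated vector cells was 1 with trended robust moderation and with either kind of array weights. With either kind of weights, the counts also became 1 for the line difference in that change (S100a4, lower), 1 for 6 h against 2 h in irradiated shRNA cells, and for 24 h against 2 h 3 in irradiated shRNA cells and 1 in irradiated vector cells. Without the 3 vector arrays at 2 h that stood apart, the 24 h against 2 h count in irradiated vector cells was 1. The default weights (REML) did not converge and alone called S100a13 at 100 cGy and 24 h in vector cells (count 1; 0.31, adjusted p = 0.0176); gene-by-gene weights were added after that was seen. Leaving out single arrays gave 0 to 1 for 6 h against 2 h in irradiated vector cells and for 24 h against 2 h in irradiated shRNA cells, and 0 elsewhere. With the stricter filter on low values, S100a1 was not tested. The threshold of 0.25 on the Gapdh difference and the second probe sets of S100a10 and S100a1 were also chosen after the data were seen. The causes of these changes were not tested.

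Replicate numbers were not taken as pairs. After group means were subtracted, arrays of the same line, time and number but another dose correlated above 0.1 in 27 of 40 pairs (median 0.23). Pairs of other numbers did so in 18 of 80 (median -0.10). Deviations from a group mean cancel out within the group, so the values of other numbers partly follow from those of the same number. Shared numbers went with likeness, but not in every pair. With the number as a replicate block, 3 and 4 members were called in the untreated and irradiated line comparisons, and 1 (S100a13, lower) at 6 h against 2 h in irradiated vector cells. A replicate block within line and time left 0 members called in each of the 10 dose comparisons.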
